A study of Mus musculus with 12 samples.

Results

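Most DDX and DHX genes encode DEAD-box and DEAH-box RNA helicases, named after a short motif of their ATP-binding core. All gene symbols that begin with Ddx or Dhx and a number were taken, without *Ddx4* and *Ddx6*, which gave 52 genes of the 24259 in the table, 36 Ddx and 16 Dhx. The choice was by symbol, and 4 of the 52, *Ddx11*, *Ddx26b*, *Ddx43* and *Ddx59*, were grouped as other or not RNA helicase. Their transcripts were measured in fully grown germinal vesicle (GV) stage mouse oocytes of 2 genotypes. The wild type (WT) was compared with the *Lsm14b* knockout (*Lsm14b*-KO), in which both copies of *Lsm14b* carried the tm1a allele. This knockout-first insertion is present in every cell of the mouse from conception, and the mice were on a C57BL/6J background. LSM14B is an RNA-binding protein of stored maternal mRNA. Oocytes came from 3-week-old females that had received 5 IU of pregnant mare serum gonadotropin (PMSG) 46 h earlier, and they were kept in cycloheximide, a drug that holds ribosomes on mRNA. Lysate of about 1500 oocytes was layered on a sucrose gradient and collected as 28 fractions. Fractions 1 to 10 formed the RNP pool, which holds free ribonucleoprotein, and fractions 11 to 28 formed the polysome pool, which holds mRNA bound by ribosomes. Each pool of each genotype was sequenced as 3 libraries, 12 in all.

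RNA helicases bind RNA and use ATP to unwind short duplexes or to remove proteins from RNA. DEAD-box enzymes pry duplexes apart locally, whereas DEAH-box enzymes and their relatives pull along a single strand. They act at each step of an mRNA's life, from splicing and nuclear export to translation, storage and decay, and many are needed to build ribosomes. A growing oocyte makes and stores most of these transcripts, and a fully grown GV oocyte no longer transcribes. The oocyte's own mRNA in the polysome and RNP pools is therefore maternal mRNA.

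The coding sequence around motif II, the stretch that gives the families their names, is shown for 8 of the helicases on which the results below turn. In each 30-base run, the capitals mark the 12 bases of the motif, and 9 bases on either side are in lower case.
Ddx3x: ctggtgttaGATGAAGCTGACcggatgtta
Ddx5: cttgtccttGATGAAGCTGATaggatgctt
Ddx19a: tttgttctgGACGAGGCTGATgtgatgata
Ddx19b: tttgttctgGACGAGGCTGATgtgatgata
Ddx28: atagtgctaGATGAAGTAGACacactgcta
Dhx8: attatgttgGATGAAGCACACgagaggacc
Dhx32: atcatcttgGACGATGTCCACgagagaagc
Dhx57: atcattgttGATGAAGTTCATgagaggaca
These were read 5′ to 3′ on the coding strand of GENCODE M21 transcripts (GRCm38, the same build as mm10). The motif codons spell DEAD in 26 of the 36 Ddx genes and DEAH in 8 of the 16 Dhx genes. The exceptions include *Ddx28*, *Dhx32* and *Dhx57* in the lines above. *Ddx26b*, now named *Ints6l*, was the only member in which no motif was found. *Ddx19a* and *Ddx19b* are identical in the stretch shown, and their longest shared coding run is 275 bases. Of the 150-base windows of the *Ddx19a* coding sequence, 18.9% occur in *Ddx19b*, so reads of one could be assigned to the other. The pairs *Ddx3x* and *Ddx3y*, *Ddx5* and *Ddx17*, *Ddx39* and *Ddx39b*, and *Ddx21* and *Ddx50* share no such window.

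Levels are given as FPKM, the fragments of a transcript scaled to its length and to the fragments mapped in the library. The libraries were estimated to hold 4.90 to 7.89 M fragments (M, mega). FPKM gives the share of a transcript within its own pool, not the amount per oocyte, and fewer oocytes with a transcript and less of it per oocyte cannot be told apart. *Lsm14b* was at 27.4 to 34.6 FPKM in the WT RNP libraries and 11.3 to 15.3 in the WT polysome libraries, against at most 0.893 and 0.260 in the KO libraries. The exact permutation test gave p = 0.1 in each pool, the smallest value that 3 against 3 libraries allow. In KO polysome replicate 2, 1 small RNA gene, *Mir300*, took 24.5% of the summed FPKM. The 9 oocyte markers were detected in every group, with summed levels of 6040 to 7810 FPKM in RNP and 21600 to 26600 in polysome libraries. The 18 markers of follicle somatic cells and blood summed to 41.8 to 87.6 FPKM in WT polysome, 100.0 to 125 in KO polysome, 65.0 to 89.5 in KO RNP and 53.0 to 67.9 in WT RNP libraries. *Star*, *Ptprc*, *Adgre1* and *Hbb-bs* were listed at 0 in all 12. The granulosa cell markers *Inha*, *Inhba* and *Fshr* lay higher in every KO polysome library than in any WT polysome library. *Inha* was at 39.4 to 51.4 FPKM in KO polysome and 0 to 9.58 in WT polysome libraries, and at 3.80 to 11.0 in KO RNP against 0 to 0.240 in WT RNP libraries. In the polysome pool *Inhba* was at 3.72 to 11.9 FPKM in KO and 0 to 0.252 in WT, and *Fshr* at 3.14 to 6.74 in KO and 0 to 0.700 in WT. In the RNP pool *Fshr* was at 7.57 to 13.6 FPKM in KO and 4.12 to 5.62 in WT, and *Amh* at 0.0900 to 0.405 in KO and 0 in WT. Other somatic markers of the list went either way. Polysome means were higher in KO for *Amh* (0.711 against 0.108 FPKM), *Hsd3b1* (1.54 against 0), *Dcn* (0.942 against 0.610) and *Pecam1* (24.0 against 20.0). They were lower for *Kitl* (1.48 against 1.56) and *Col1a2* (0.0708 against 0.247), and the libraries of these genes overlapped. In the polysome pool *Cyp11a1* was lower in KO, at 0 to 0.0971 FPKM against 0.644 to 0.838 in WT. *Cyp19a1* overlapped there, at 14.6 to 34.5 FPKM in KO and 19.0 to 62.0 in WT. The part of somatic RNA in the results below was not tested. The methods speak of independent experiments in general, without naming the gradients or animals behind the libraries of a group, so the p-values measure the spread between these libraries.

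Helicase transcripts spanned a wide range in the oocyte. Averaged over the 12 libraries, 4 members had at least 50 FPKM, 11 had 10 to 50, 29 had 1 to 10 and 8 were under 1. The median of the 52 means was 5.20 FPKM. The 5 highest members held 67.0% of the summed FPKM of the family. They were *Ddx28* with a mean of 211 FPKM, *Ddx3x* with 122, *Ddx5* with 99.8, *Ddx24* with 85.5 and *Ddx19a* with 41.8. They have different roles, in mitochondrial ribosome assembly, translation, splicing, nucleolar ribosome assembly and mRNA export. In the RNP pool every library of the first 4 lay above every library of *Ddx19a*, and in the polysome pool the libraries of *Ddx5* and *Ddx24* overlapped those of *Ddx19a*.

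The 8 lowest members reached an FPKM of 1 in fewer than 3 libraries and entered no comparison. *Ddx3y*, the Y-linked copy of *Ddx3x*, was listed at 0 in all 12 libraries of these female cells. *Ddx43*, *Ddx26b*, *Ddx60* and *Dhx58* reached at most 0.305, 0.362, 0.436 and 0.831 FPKM. *Ddx60* and *Dhx58* act with the RNA sensor encoded by *Ddx58* in antiviral defense. *Dhx37*, a ribosome assembly helicase, reached 1.17 FPKM in a WT polysome library and was listed at 0 in 9 libraries. *Dhx9* and the splicing helicase *Ddx23* were listed at no more than 0.748 and 0.465 FPKM, although most cells use both.

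**Figure D1:**
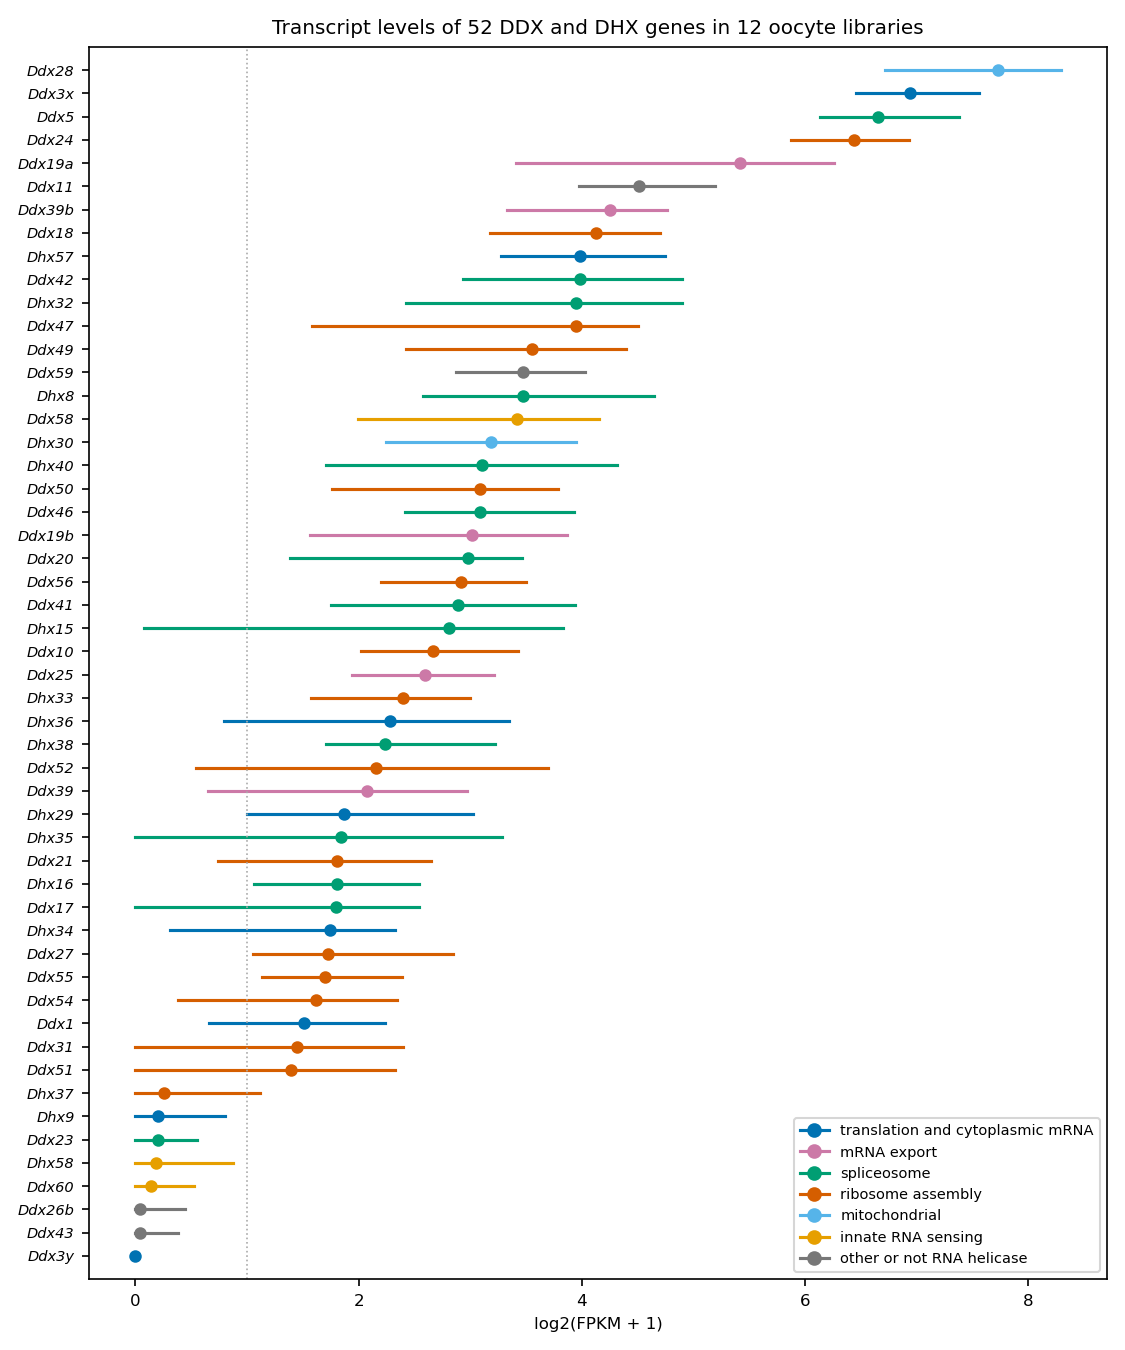
Level of the 52 members on the log2(FPKM + 1) scale, with the mean of 12 libraries as a point, the lowest to highest library as a line, and the role of the member as color. The dotted line marks 1 FPKM, and the 5 members from *Ddx28* to *Ddx19a* stand at the top while the means of 8 members lie left of the line.

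The first question was which helicase transcripts are richer in the polysome than in the RNP pool of WT oocytes. Of 42 members tested, *Ddx19a* and *Ddx3x* were higher in the polysome pool and *Ddx47* and *Ddx24* were lower. The test was limma on log2(FPKM + 1) across all genes with Benjamini-Hochberg adjustment at 0.05. Among all 9574 genes tested, 7.97% were called higher and 6.72% lower, so 2 members in each direction (4.76% each) are no more than the background. The median change of the members was -0.53 on the log2 scale, against -0.09 for all genes. The 3 polysome libraries lay above all 3 RNP libraries for 8 members and below them for 13, or 19.0% and 31.0%, where 16.7% and 17.9% of all genes did so.

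*Ddx19a*, whose product releases mRNA from its carriers on the outer side of the nuclear pore, was higher in the polysome pool. It was at 17.0, 9.63 and 25.2 FPKM in the WT RNP libraries and at 63.5, 49.5 and 67.6 in the WT polysome libraries, which do not overlap. The log2 change was 1.83 ± 0.34 (SE), with an adjusted p of 0.0091 by limma. Between pools, a replicate was left out by dropping the libraries of that number from both pools, and this WT call was lost without replicate 1. The gene lies at chr8:110974996-110997800 on the minus strand. In KO oocytes it was at 23.3, 17.5 and 18.4 FPKM in the RNP pool and at 62.3, 75.6 and 71.8 in the polysome pool, a change of 1.78 ± 0.17 (limma adjusted p = 9.06e-05). Its neighbor and near copy *Ddx19b* (chr8:111003188-111031751) was at 3.44, 3.61 and 10.3 FPKM in WT RNP and at 13.6, 1.96 and 10.3 in WT polysome libraries. The *Ddx19b* libraries thus overlapped between pools, and its change of 0.36 ± 0.68 did not pass the test. Summed over both genes, because reads may be shared, the WT RNP libraries gave 13.2 to 35.5 FPKM and the WT polysome libraries 51.5 to 77.8. The corresponding sums in KO were 24.9 to 28.6 and 71.0 to 85.6, so the summed FPKM did not overlap between pools in either genotype. The transcripts of *Ddx19a* and *Ddx19b* are 2547 and 6612 bases long. A read moved from one copy to the other therefore changes the sum, and the sum cannot settle the effect of shared reads.

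*Ddx3x*, an X-linked helicase that helps ribosomes start on structured mRNA (chrX:13280970-13294052), was at 96.2, 106 and 103 FPKM in WT RNP and at 188, 158 and 136 in WT polysome libraries. All polysome values were higher, with a change of 0.64 ± 0.16 (limma adjusted p = 0.028). In KO it was at 90.8, 91.2 and 86.9 FPKM in RNP and at 104, 136 and 166 in polysome libraries, a change of 0.57 ± 0.16 (limma adjusted p = 0.0286). The KO polysome libraries varied widely for this gene, and the lowest of them was close to the RNP level. The KO call was lost without KO replicate 2 or 3, with no filter and with no intensity trend. Its WT call was lost without WT replicate 1, 2 or 3, with the replicate block, with quantile normalization and with no intensity trend, at a limma adjusted p between 0.0176 and 0.181 over the alternatives.

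*Ddx24*, which acts in ribosome assembly (chr12:103407982-103425830), went the other way. It was at 120.0, 108 and 121 FPKM in WT RNP libraries and at 72.7, 85.5 and 74.0 in WT polysome libraries, with no overlap. The change was -0.58 ± 0.15 (limma adjusted p = 0.0355). In KO the same direction was found, with 84.2, 85.4 and 85.8 FPKM in RNP and 65.6, 66.8 and 57.8 in polysome libraries (-0.42 ± 0.12, limma adjusted p = 0.0281). *Ddx19a*, *Ddx3x* and *Ddx24* were the 3 members called in both genotypes, in comparisons that share no library. How many of all genes were called in both is not given here, so this count has no background to read it against. The calls of *Ddx24* were lost without any 1 of the 3 replicates in both genotypes, with the replicate block and with no intensity trend.

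*Ddx47*, another ribosome assembly helicase (chr6:135011612-135023776), had a steep WT gap, from 21.7, 19.3 and 18.8 FPKM in RNP to 2.00, 6.75 and 6.31 in polysome libraries. Its change of -1.92 ± 0.44 passed the test (limma adjusted p = 0.0216), and the call was lost without WT replicate 1, 2 or 3 and with no filter. The KO polysome libraries were at 18.4, 12.2 and 9.4999 FPKM, and the KO RNP libraries at 21.03, 19.2 and 17.6, so the KO pools overlapped. The KO change of -0.54 ± 0.26 did not pass (limma adjusted p = 0.152). The difference between the genotypes' changes was 1.38 ± 0.51, with an unadjusted p of 0.0176 and an adjusted p of 0.319 by limma, so it did not pass either.

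In the KO, 12 of 43 members differed between pools, 6 in each direction (14.0% each). Among all 9851 genes tested, 15.5% were higher and 13.8% lower, which is about the members' share. The members' median change was -0.02, against -0.04 for all genes. Polysome libraries lay above RNP libraries for 11 members and below for 9, or 25.6% and 20.9%, against 22.5% and 21.7% of all genes.

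The 6 higher members were *Ddx19a* and *Ddx3x*, described above, with *Ddx5*, *Ddx41*, *Ddx42* and *Dhx40*, which belong to splicing or are relatives of splicing helicases. *Ddx41*, a spliceosome helicase (chr13:55530410-55536658), was at 2.60, 3.87 and 3.17 FPKM in KO RNP and at 14.3, 10.3 and 7.98 in KO polysome libraries. Its change was 1.47 ± 0.31 (limma adjusted p = 0.00684), and 17.4% of its exonic bases are shared with *Gm46416*. *Ddx42*, which acts early in spliceosome assembly, was at 13.4, 10.5 and 9.43 FPKM in KO RNP and at 19.9, 22.4 and 28.8 in KO polysome libraries (1.02 ± 0.23, limma adjusted p = 0.00933). For both genes the WT polysome libraries were also all above the WT RNP libraries. *Ddx41* was at 3.42, 5.08 and 2.37 FPKM in WT RNP and 6.15, 8.30 and 9.52 in WT polysome. The WT changes of 0.98 ± 0.43 for *Ddx41* and 0.68 ± 0.35 for *Ddx42* did not pass the test. *Dhx40* rose from 4.58, 2.27 and 2.64 FPKM in KO RNP to 6.15, 12.3 and 7.45 in KO polysome libraries (1.20 ± 0.36, limma adjusted p = 0.0333). In WT its change was 1.37 ± 0.43, with a limma adjusted p of 0.0684. The KO call of *Ddx41* was lost without KO replicate 1, and those of *Ddx42* and *Dhx40* without KO replicate 2 or 3. That of *Dhx40* was also lost with the replicate block and with no filter.

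The 6 lower members were *Ddx28*, *Dhx32*, *Ddx18*, *Ddx50*, *Ddx24* and *Ddx58*. *Ddx28* encodes a helicase of mitochondrial ribosome assembly and has a single exon at chr8:106009621-106011882, with 3.20% of its bases shared with *Dus2*. It was at 229.6, 225 and 255 FPKM in KO RNP and at 157, 104 and 144 in KO polysome libraries, a change of -0.82 ± 0.15 (limma adjusted p = 0.00375). In WT it was at 224, 295 and 312 FPKM in RNP and at 272, 164 and 149 in polysome libraries. WT polysome replicate 1 thus overlapped the RNP libraries, and the WT change of -0.54 ± 0.23 did not pass. Without WT replicate 1 it was -0.95 and passed. *Dhx32*, a relative of splicing helicases whose role is less clear (chr7:133720942-133782726), was at 16.9, 15.5 and 19.1 FPKM in KO RNP and at 4.37, 6.56 and 7.41 in KO polysome libraries. Its change was -1.37 ± 0.26 (limma adjusted p = 0.00393), and the WT change was -1.22 ± 0.37 (limma adjusted p = 0.059).

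*Ddx18* and *Ddx50* act in ribosome assembly. *Ddx18* was at 18.7, 21.3 and 20.6 FPKM in KO RNP and at 10.6, 13.5 and 8.02 in KO polysome libraries (-0.88 ± 0.24, limma adjusted p = 0.0208). *Ddx50* was at 9.07, 12.8 and 12.6 against 6.23, 4.68 and 5.30 (-0.95 ± 0.27, limma adjusted p = 0.0249). Its paralog and neighbor on chromosome 10, *Ddx21*, did not pass in either genotype, at -0.97 ± 0.44 in WT and -0.52 ± 0.39 in KO. *Ddx58*, which encodes the antiviral RNA sensor RIG-I, was at 9.68, 11.98 and 14.8 FPKM in KO RNP and at 8.33, 3.55 and 5.15 in KO polysome libraries (-1.02 ± 0.33, limma adjusted p = 0.0428). All 6 had KO polysome libraries below every KO RNP library. The calls of *Ddx28* and *Dhx32* passed in every alternative. Those of *Ddx50* and *Ddx58* were lost without KO replicate 2 or 3 and with the replicate block, that of *Ddx58* also with no filter and with no intensity trend, and that of *Ddx18* without KO replicate 1, 2 or 3.

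**Figure D2:**
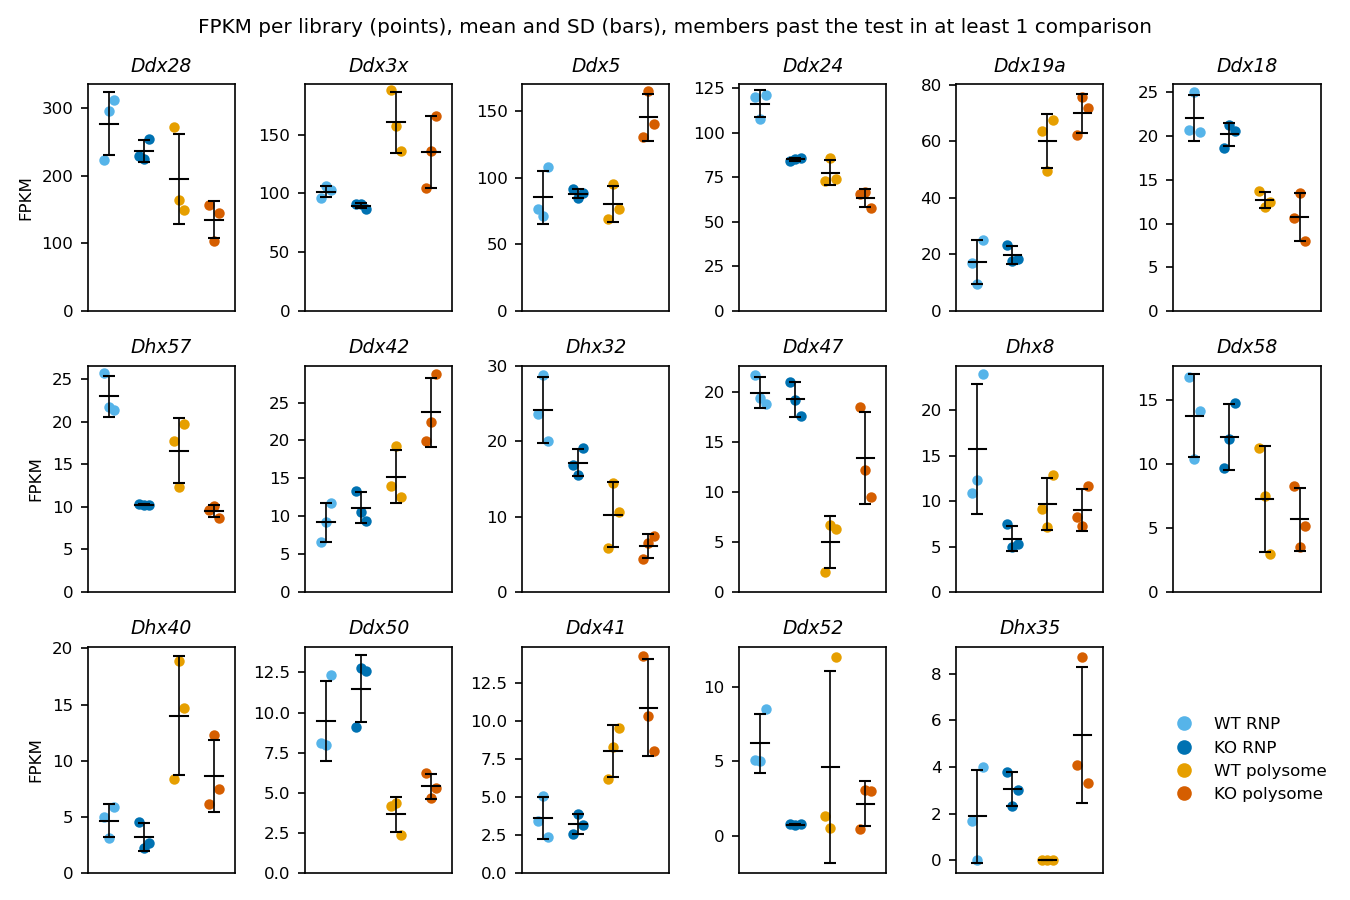
FPKM in each library for the 17 members that passed the test in at least 1 comparison, with points as libraries and bars as mean and SD of 3 libraries. Polysome libraries stand above RNP libraries for *Ddx19a* in both genotypes, KO polysome libraries stand above all others for *Ddx5*, and *Dhx35* is listed at 0 in the 3 WT polysome libraries.

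By role, the ribosome assembly helicases had the lowest median change between the WT pools among roles with at least 5 members tested. Of the 16 genes of that role, 15 were tested and 13 had a change below 0, with a median of -0.73 against -0.09 for all genes, and 2 of them, *Ddx47* and *Ddx24*, passed the test. In KO, 8 of 14 were below 0, with a median of -0.21, and *Ddx18*, *Ddx50* and *Ddx24* passed. The background share that passed with a lower polysome level was 6.72% of the genes tested in WT and 13.8% in KO. Relative to all genes the medians of this role differed by -0.64 in WT (-0.73 to -0.36 over 11 alternatives) and by -0.17 in KO (-0.51 to -0.02). The 2 ranges overlap, but they come from refits of the same libraries and do not measure a spread between samples. The spliceosome helicases had 7 of 12 below 0 in WT (median -0.30) and 4 of 13 below 0 in KO (median 0.54). None of them was called in WT, where the background was 7.97% higher and 6.72% lower. In KO 4 were called higher and *Dhx32* lower, beside a background of 15.5% higher and 13.8% lower. The mRNA export group had 3 of 5 above 0 in WT and 2 of 5 in KO, with *Ddx19a* the member called in each. *Ddx39* and *Ddx39b*, which load the export machinery onto mRNA, had values below 0 in both genotypes (WT, -1.32 ± 0.47 and -0.52 ± 0.30), and neither passed. Of the translation group, 3 of 5 tested were above 0 in WT and 4 of 6 in KO, and *Ddx3x* alone was called. *Dhx36*, which unwinds G-quadruplexes, was at 1.43, 0.947 and 0.728 FPKM in WT RNP and at 4.81, 2.17 and 9.15 in WT polysome libraries, a change of 1.51 ± 0.54 that did not pass (limma adjusted p = 0.102). *Dhx34*, a helicase of nonsense-mediated decay, was at 4.02, 3.06 and 3.96 against 0.620, 1.15 and 0.243 FPKM (-1.52 ± 0.46, limma adjusted p = 0.0603). The medians and counts of calls by role describe the groups, and they were not tested against other genes.

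By name, the 30 Ddx genes tested had a median pool change of -0.55 in WT and the 12 Dhx genes one of 0.19. In KO the medians were -0.18 for 30 Ddx and 0.54 for 13 Dhx genes. Coding length went with the pool change only weakly across the members, with a Spearman correlation of 0.08 over 42 members in WT and 0.16 over 43 in KO. Members of these correlations share libraries and are not independent.

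**Figure D3:**
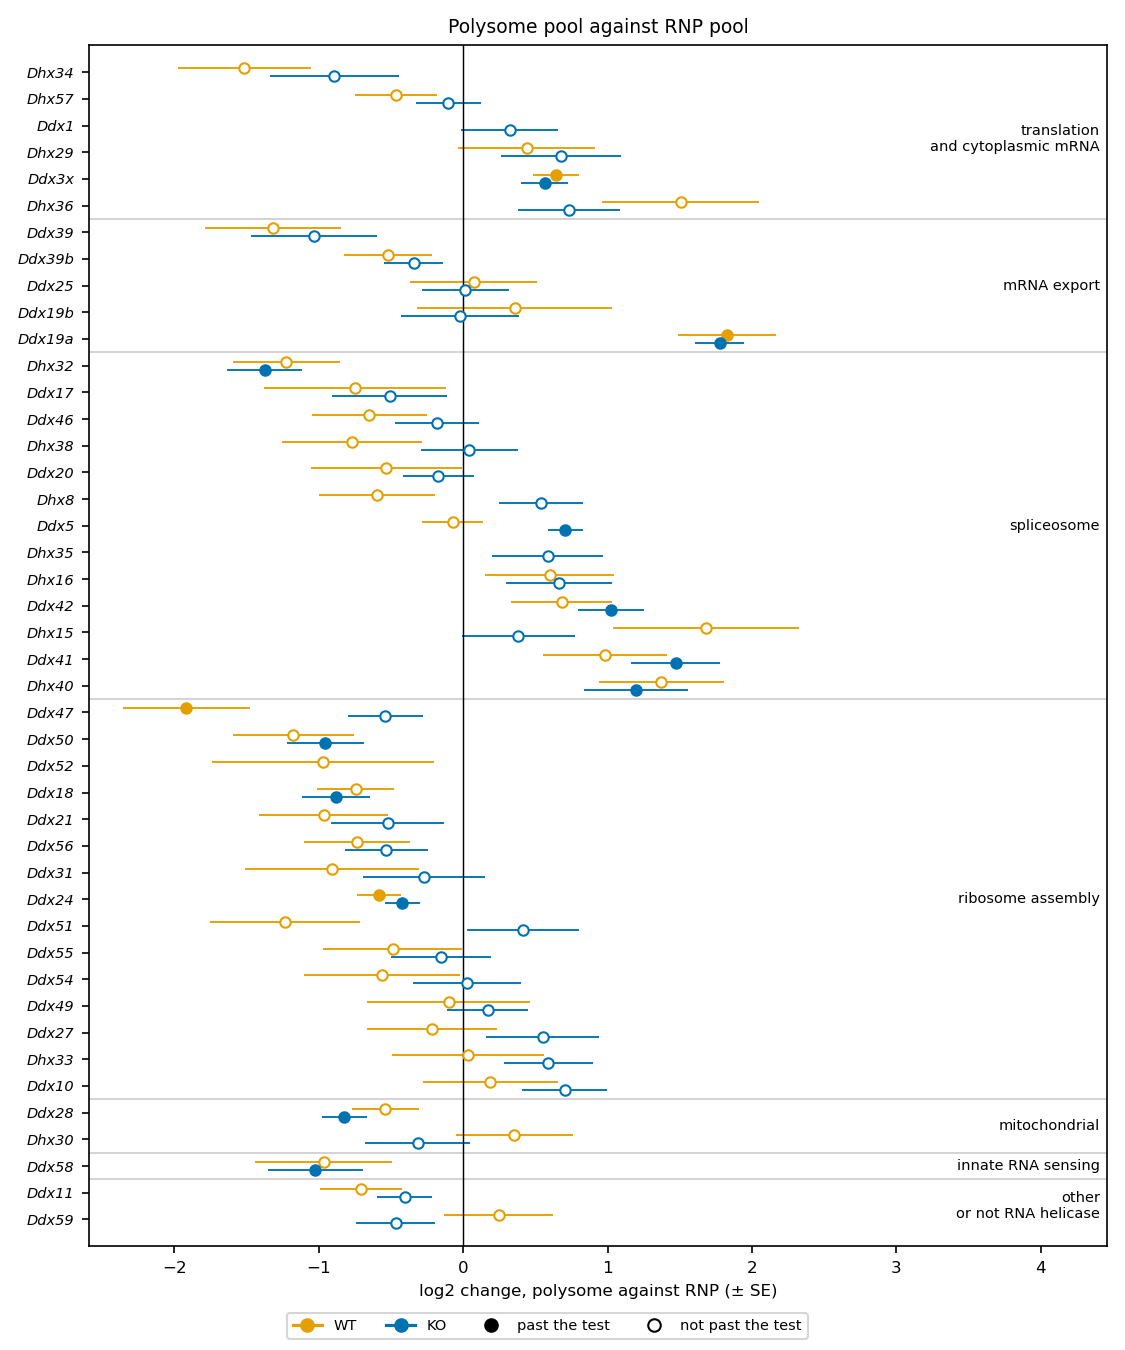
Change from RNP to polysome pool for each member tested, on the log2(FPKM + 1) scale with its SE, in WT and in KO, grouped by role. Filled points passed the test, and *Ddx19a* stands farthest right in both genotypes while 13 of the 15 ribosome assembly members lie left of 0 in WT.

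The second question was how loss of *Lsm14b* changed the helicase transcripts of each pool. In the polysome pool, 2 of 44 members were higher in KO (4.55%) and 0 were lower, where 5.64% and 4.73% of all 9536 genes tested were called. The members called higher were *Ddx5* and *Dhx35*. In either direction, 3 members (6.82%) had an unadjusted p under 0.05 by limma, against 26.3% of all genes. The median change of the members was 0.36, against 0.10 for all genes, and 29 of 44 (65.9%) were above 0, against 55.7% of all genes. With genes under 5 FPKM left out, the members' median no longer stood above that of all genes, at a difference of -0.01 in place of 0.26. KO libraries lay above all WT libraries for 12 members and below for 2, or 27.3% and 4.55%, against 18.2% and 13.4% of all genes.

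*Ddx5* encodes an abundant nuclear helicase that acts in splicing and transcription (chr11:106780355-106789185). It was at 69.4, 95.6 and 76.2 FPKM in WT polysome and at 131, 165 and 140.3 in KO polysome libraries, all above WT. The means were 145 ± 17.7 (SD, n = 3) in KO and 80.4 ± 13.6 in WT, and the log2 change was 0.85 ± 0.17 (limma adjusted p = 0.0191). Without KO polysome replicate 2, without KO polysome replicate 3 or with no intensity trend the call was lost, with changes of 0.75 to 0.98 over all alternatives. In the RNP pool it was at 76.4, 71.3 and 108 FPKM in WT and at 91.4, 84.6 and 88.6 in KO, which overlap (0.07 ± 0.16, limma adjusted p = 0.798). Within KO, *Ddx5* was higher in the polysome than in the RNP pool (0.71 ± 0.12, limma adjusted p = 0.00241), whereas within WT the change was -0.07 ± 0.21. Its closest paralog *Ddx17* was far lower. The *Ddx17* libraries were at 0, 3.10 and 1.69 FPKM in WT polysome and at 1.78, 3.46 and 1.09 in KO polysome, and its change of 0.41 ± 0.61 did not pass. The mean of *Ddx5* was 50.4 times that of *Ddx17* in WT polysome and 68.9 times in KO polysome libraries.

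*Dhx35*, a spliceosome helicase (chr2:158794807-158858214), was listed at 0 in all 3 WT polysome libraries and at 4.09, 8.73 and 3.33 FPKM in KO polysome libraries. The difference passed the limma test at an adjusted p of 0.0125, but *Dhx35* entered this comparison only through the KO libraries in which it was high. It passed in the 10 alternatives that could test it. With any KO polysome replicate left out, or with the filter at 5 FPKM, it could not be tested. No fold is given against a group listed at 0. The KO values correspond to an estimated 50.4 to 138 fragments. In the RNP pool it was at 1.69, 0 and 3.98 FPKM in WT and at 3.77, 2.31 and 3.03 in KO, so WT libraries lay on both sides of the KO libraries. It could not be tested between the WT pools, because fewer than 3 of those 6 libraries reached 1 FPKM.

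In the RNP pool, 4 of 44 members were lower in KO (9.09%) and 0 were higher, where 10.2% and 10.5% of all 9931 genes tested were called. The 4 were *Ddx52*, *Dhx57*, *Ddx24* and *Dhx8*, and 11 members (25%) had an unadjusted p under 0.05 by limma, against 34.1% of all genes. The median change of the members was 0.03, and that of all genes 0.05. KO libraries lay above all WT libraries for 7 members and below for 8, or 15.9% and 18.2%, against 20.7% and 18.4% of all genes.

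*Ddx52*, a helicase of the small ribosomal subunit's assembly (chr11:83942062-83963088), was at 5.07, 5.06 and 8.48 FPKM in WT RNP and at 0.787, 0.737 and 0.812 in KO RNP libraries. Its change was -1.98 ± 0.35 (limma adjusted p = 0.00473), and it passed in the 11 alternatives that could test it. All 3 KO RNP libraries were under 1 FPKM, so *Ddx52* entered this comparison only through the WT libraries, and with any WT RNP replicate left out it could not be tested. The KO values rest on an estimated 14.9 to 17.9 fragments, and the WT values on 102 to 165. In the polysome pool the libraries were scattered, at 1.35, 0.520 and 11.997 FPKM in WT and at 0.458, 3.10 and 2.99 in KO, and the change of -0.32 ± 0.83 did not pass.

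*Dhx57* (chr17:80238309-80290476) was at 25.8, 21.8 and 21.4 FPKM in WT RNP and at 10.4, 10.2 and 10.2 in KO RNP libraries, with a change of -1.09 ± 0.20 (limma adjusted p = 0.006). It passed in all 14 alternatives. KO polysome libraries, at 9.67, 10.1 and 8.71 FPKM, were also all below WT polysome libraries, at 17.8, 12.3 and 19.7, but the change of -0.72 ± 0.32 did not pass (limma adjusted p = 0.191). The exons of *Dhx57* share 6.50% of their bases with other genes, *Morn2* among them, and reads there cannot be told apart without strand.

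*Ddx24* was at 120.0, 108 and 121 FPKM in WT RNP and at 84.2, 85.4 and 85.8 in KO RNP libraries, a small change with a narrow spread (-0.44 ± 0.11, limma adjusted p = 0.020). The call was lost without KO RNP replicate 1, 2 or 3 and with no intensity trend. In the polysome pool the KO libraries were also all lower, at -0.28 ± 0.16, which did not pass. *Dhx8*, which releases mRNA from the spliceosome after splicing (chr11:101732919-101767358), was at 10.9, 12.3 and 24.0 FPKM in WT RNP and at 7.45, 4.96 and 5.26 in KO RNP libraries. WT RNP replicate 3 was the highest by far, and without it the call of -1.22 ± 0.34 (limma adjusted p = 0.032) was lost, with a change of -0.89. The call was also lost without KO RNP replicate 1, 2 or 3, with the replicate block, with no filter and with no intensity trend. In the polysome pool *Dhx8* was at 9.19, 7.13 and 12.8 FPKM in WT and at 8.24, 7.28 and 11.7 in KO, which overlap.

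Some members had KO RNP libraries all above WT RNP libraries and did not pass the test. *Dhx15*, which takes spent spliceosomes apart, was at 3.41, 0.0523 and 1.41 FPKM in WT RNP and at 10.7, 4.52 and 4.83 in KO RNP libraries (1.69 ± 0.56, limma adjusted p = 0.0601), and it passed with the replicate block and without WT RNP replicate 1 (2.18). *Dhx36* was at 3.56, 3.15 and 2.47 FPKM in KO RNP, above the WT values given earlier (1.00 ± 0.36, limma adjusted p = 0.0785). *Ddx20*, a component of the SMN complex that assembles spliceosomal particles, was at 5.36, 6.05 and 5.85 FPKM in WT and at 10.0, 9.61 and 8.30 in KO (0.61 ± 0.26, limma adjusted p = 0.134). The 5 mRNA export members all had RNP changes above 0, from 0.26 to 0.49, and none passed. Of the 15 ribosome assembly members tested, 10 were below 0 in the RNP pool (median -0.12) and 10 were above 0 in the polysome pool (median 0.48).

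**Figure D4:**
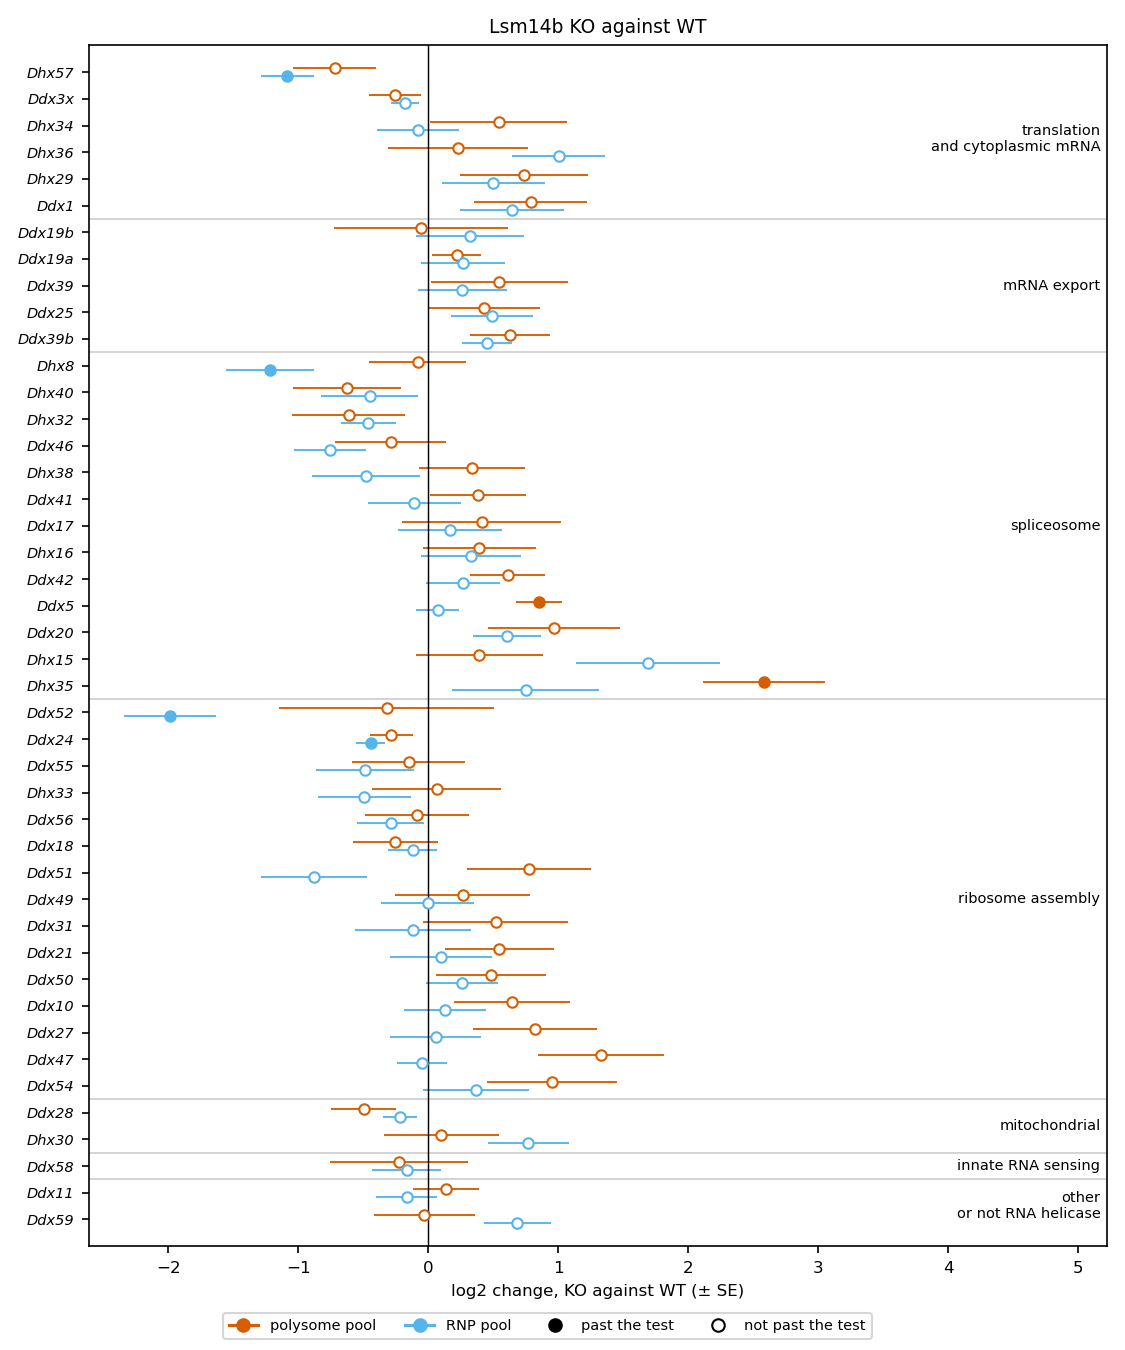
Change from WT to *Lsm14b*-KO for each member tested, on the log2(FPKM + 1) scale with its SE, in the polysome pool and in the RNP pool, grouped by role. Filled points passed the test, and they are *Ddx5* and *Dhx35* in the polysome pool, right of 0, and *Ddx52*, *Dhx57*, *Ddx24* and *Dhx8* in the RNP pool, left of 0.

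The third question was whether *Lsm14b* loss shifted helicase transcripts between the pools, that is, whether the polysome-to-RNP ratio of KO oocytes differed from that of WT. The interaction of genotype and pool was fitted over all 12 libraries. By limma at an adjusted p under 0.05, 0 of 44 members passed in either direction, where 0.0822% of all 10949 genes tested were called higher and 0.155% lower. On simulated data this fit recovered 5% of changes of 1 on the log2 scale and 47% of changes of 2, so a shift of 1 would mostly be missed. The count of members at an unadjusted p under 0.05 was 5 (11.4%), and that of all genes 11.1%. The 5 were *Ddx5*, *Ddx51*, *Ddx47*, *Dhx35* and *Dhx8*, all with a ratio higher in KO, and their adjusted p ranged from 0.242 to 0.417 by limma.

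The ratio of *Ddx5* was higher in KO by 0.78 ± 0.25. That of *Dhx8* was higher by 1.14 ± 0.50, from an RNP level that was lower in KO and a polysome level that overlapped. *Ddx51*, a helicase of large ribosomal subunit assembly, was at 2.79, 1.86 and 4.01 FPKM in WT RNP and at 0.500, 1.19 and 1.67 in KO RNP. Its polysome libraries were at 0.821, 0 and 1.29 FPKM in WT and at 2.33, 1.59 and 1.41 in KO. The KO libraries were thus all lower in one pool and all higher in the other, at levels of a few FPKM, and the interaction was 1.65 ± 0.60.

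Over all 44 members the median difference of ratios was 0.28, against 0.04 for all genes, and 31 (70.5%) were above 0, against 52.4% of all genes. Across these members the difference of ratios was larger at lower mean levels (Spearman correlation -0.37). The same held for the KO change in the polysome pool (-0.42). Members share libraries in these correlations and are not independent. Ribosome assembly helicases had 14 of 15 above 0, with a median of 0.52, and the exception was *Ddx18* at -0.14 ± 0.33. Relative to all genes, that median differed by 0.48 in the reported fit, and by 0.19 to 0.68 over 15 alternatives. These alternatives refit the same libraries, so their range is not a spread between samples. The WT pool changes and these ratios use the same WT libraries, so the low WT values and the high ratios of this group are not separate observations. Spliceosome helicases had 10 of 13 above 0 (median 0.36), the translation group 4 of 6 (median 0.19), and the export group 2 of 5 (median -0.05). Both mitochondrial members, *Ddx28* and *Dhx30*, were below 0, at -0.28 ± 0.31 and -0.67 ± 0.53.

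Other RNA helicases, outside the DDX and DHX names, were described for comparison. Of 22 such genes in the table, 19 were tested between the WT pools, and 0 were lower in the polysome pool, where 6.72% of all genes were. *Eif4a1* and *Eif4a2*, the helicases of the cap-binding complex, were among those higher there. *Eif4a1* was at 82.4, 87.3 and 67.0 FPKM in WT RNP and at 149, 149.5 and 139 in WT polysome libraries (0.89 ± 0.16, limma adjusted p = 0.00713). In the KO polysome pool *Eif4a1* reached 226, 230.5 and 208 FPKM, higher than in WT (0.60 ± 0.12, limma adjusted p = 0.0184). It was the only gene of 17 tested to be called there (5.88%, where 5.64% of all genes were higher). This call was lost without KO polysome replicate 1, 2 or 3, with the replicate block and with no intensity trend. Within KO, *Snrnp200*, *Tdrd9* and *Znfx1* were also higher in the polysome pool, and 0 of 17 tested were lower, where 13.8% of all genes were. The call of *Snrnp200* was lost without KO replicate 1, 2 or 3 and with the replicate block, and that of *Tdrd9* without KO replicate 2 or 3. *Upf1*, the helicase of nonsense-mediated decay, was the only one of 16 tested to be called in the RNP pool (6.25%, where 10.2% of all genes were lower). It was lower in KO at 14.1, 13.9 and 14.8 FPKM against 27.9, 31.0 and 24.3 in WT (-0.91 ± 0.19, limma adjusted p = 0.0100). In the ratio, 0 of 19 passed by limma.

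Of 37 genes for helicase cofactors, 31 were tested in the polysome pool. *Eif4h*, which stimulates EIF4A, was higher in KO (3.23%, against 5.64% of all genes), and 0 of 31 were lower, against 4.73% of all genes. *Eif4h* was at 189, 190.6 and 150.2 FPKM in WT and at 262, 319 and 313 in KO polysome libraries (0.75 ± 0.15, limma adjusted p = 0.0152), and the call was lost without KO polysome replicate 2 or 3 and with no intensity trend. In the RNP pool 4 of 34 were lower in KO (11.8%, against 10.2% of all genes), *Alyref2*, *Gpatch4*, *Gpatch8* and *Nkrf*, and 0 were higher, against 10.5% of all genes. The call of *Nkrf* was lost without KO RNP replicate 1 or 2. *Gle1*, the activator of DDX19 at the nuclear pore, was lower in the polysome pool in both genotypes, at -0.67 ± 0.17 in WT and -0.52 ± 0.11 in KO (limma adjusted p = 0.0296 and 0.00904), opposite in sign to *Ddx19a*. The WT call of *Gle1* was lost without WT replicate 1, 2 or 3, and the KO call without KO replicate 2. In WT, *Pinx1* was also lower and *Thoc3* higher (6.25% of 32 cofactors lower and 3.12% higher, against 6.72% and 7.97% of all genes). The WT call of *Pinx1* was lost without WT replicate 1 or 3, and that of *Thoc3* without WT replicate 1, 2 or 3 and with the replicate block. In KO, 8 of 32 cofactors (25%, against 15.5% of all genes) were higher in the polysome pool, *Cmtr1*, *Eif4b*, *Eif4g1*, *Eif4h*, *Gpatch8*, *Nup214*, *Pdcd4* and *Thoc3*, and *Gle1*, *Nxt1* and *Smn1* were lower (9.38%, against 13.8%). The KO calls of *Eif4b*, *Gpatch8* and *Nxt1* were lost without KO replicate 2 or 3, that of *Cmtr1* without KO replicate 1 or 2, and that of *Eif4g1* without KO replicate 1, 2 or 3. Those of *Eif4g1* and *Nxt1* were also lost with the replicate block. None of 36 passed in the ratio.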

How the data were processed

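RNA from the polysome and RNP pools of WT and *Lsm14b*-KO GV oocytes was amplified by Smart-seq2 and sequenced with 150 bp paired reads. Per the labels, the authors mapped trimmed reads to mm10 with TopHat2 2.0.13 and deposited FPKM per gene symbol and library from Cufflinks 2.2.1. FPKM holds no counts, and the annotation release is not given in the sources used here. The labels name different library kits and do not state strand. The deposited table also holds the authors' log2 changes with p-values and q-values from Cuffdiff, which were not used. Groups came from sample titles.

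Each of 5 comparisons was fitted across all genes with limma 3.58.1 (R 4.3.3) on log2(FPKM + 1), with an intensity trend, keeping genes that reached 1 FPKM in 3 or more of its libraries, and p-values were adjusted by Benjamini-Hochberg. Two-sided tests were used. Changes on this scale understate those of low genes. Alternatives were pseudocounts of 0.1 and 5, no filter, a filter at 5 FPKM, rescaled medians, quantile normalization, no trend, a replicate block and each replicate left out. Low FPKM values rise in steps of whole fragments, which gave an estimate of depth, with transcript length less 200 bases. Genes, sequences and exon overlaps came from GENCODE M21, to which all 52 symbols matched, 1 by synonym. Motif II was sought 60 to 350 residues after motif I. The fits were tested on simulated data, with 200 genes changed by 1 or by 2 on the log2 scale. The ratio fit recovered 5% of changes of 1 and 47% of changes of 2. The other comparisons recovered 7% to 33% and 57% to 83%. Between 0% and 9.52% of the calls were false. Python 3.11.15 with pandas 2.3.3 and matplotlib 3.10.9 made tables and figures.

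Every member may be named within its role. Full values are given for members called in a comparison, at most 8 in each direction, for the 5 highest and for close paralogs, and called genes of the lists of other helicases and cofactors are named. *Mir300*, the somatic markers with values and further members were named after their values were seen. The members, roles and lists were chosen with earlier results of these data known. The sum of *Ddx19a* and *Ddx19b* and the alternatives of the ribosome assembly median were added after seeing the data. The result of 1 gene of the list of other helicases is not reported here.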

Additional observations from a re-analysis of the deposited data

Results flagged for a closer look

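*Ddx51* was picked out because *Lsm14b* loss moved it in opposite directions in the 2 pools, with all KO libraries below all WT libraries in the RNP pool and all above them in the polysome pool. The interaction was 1.65 ± 0.60 on the log2 scale and did not pass the test (limma adjusted p = 0.316). Over 14 alternatives it ran from 0.61 to 3.23, with an adjusted p of 0.289 to 0.684. Groups of 3 libraries were not searched for single outlying values.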

How the results depend on the processing

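The 27 member changes followed were the 22 calls and the 5 ratio changes at an unadjusted p under 0.05 by limma. No direction was reversed in any alternative, but the changes were chosen on their result in these same libraries, so this says little. Of the 22 calls, 7 passed in every alternative in which they could be tested and 15 were lost in at least 1, mostly with a replicate left out, which leaves fewer libraries. The 7 include *Dhx35* in the polysome pool and *Ddx52* in the RNP pool, tested in only 10 and 11 of 14 alternatives. Each entered its comparison only through the group where it was high, so passing there says little about how firm these calls are. In the polysome pool the count of members called in KO fell from 2 to 1 with a filter at 5 FPKM, where *Dhx35* is not tested, and to 1 with no intensity trend. Leaving out each replicate gave 0 to 2 there (0 without KO replicate 2 or 3), 2 to 5 in the RNP pool, 1 between the WT pools and 5 to 10 between the KO pools (5 without KO replicate 2 or 3). In the ratio 0 were called under each of 15 alternatives. The members' median less that of all genes, 0.26 in the polysome pool, was 0.11 with a pseudocount of 5, -0.01 with a filter at 5 FPKM and 0.10 to 0.32 with a replicate left out. Between the WT pools it was -0.43, and -0.23 with a pseudocount of 5. Between the KO pools it was 0.02, -0.15 with the filter at 5 FPKM and -0.09 to 0.03 with a replicate left out. In the ratio it was 0.24, 0.13 with a pseudocount of 5 and 0.12 to 0.32 with a replicate left out. The cause was not tested.

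No correlation of same-numbered libraries' deviations from their group means passed 0.1 (range -0.0207 to 0.0255). The sources do not say whether same-numbered libraries share a gradient, and low correlations cannot exclude that they do. With the replicate block, the count between the WT pools was 2 in place of 4, between the KO pools 8 in place of 12, 2 as in the reported fit in the polysome pool, and in the RNP pool 3 lower and 1 higher in place of 4 lower, with *Dhx8* lost and *Dhx15* gained. At 4.90 to 7.89 M fragments per library, members that reached 1 FPKM in fewer than 3 libraries were compared only with no filter, where none of those tested had an unadjusted p under 0.05 by limma.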
